A study of Mus musculus with 11 samples.

Results

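A set of 166 probes, of 45281 on the array, marked transcripts already detected in cultures of mouse stem cells. The transcripts were higher in embryoid bodies of a connexin-carrying line. In embryoid bodies of a line without connexin43 and connexin45 they lay near or below the stem cell level. The probes were chosen on the measured values themselves. Each had to be detected on both arrays of control stem cells and on all 3 arrays of control embryoid bodies, which means that its detection p-value, which sets a probe against the array's own negative controls, was under 0.05. On the log2 scale the mean of control embryoid bodies had to lie at least 1 (2-fold) above both control stem cells and deleted embryoid bodies. The mean of deleted embryoid bodies had to lie more than -1 and at most 0.25 from that of control stem cells. Of 13935 probes with the required detection, 1224 rose at least 2-fold in the control line, and the 166 made up 13.6% of these risers.

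Expression was measured on 11 Illumina bead arrays, which report the brightness of labelled RNA bound to each probe. All samples derived from male C57BL/6 embryonic stem cells. The control group, Cx43/45 flox, kept both connexin genes, with recombination sites around them. The deleted group, Cx43/45 del, lacked exon 3 of both genes and also carried a lacZ reporter driven by the Cx43 promoter and an eGFP reporter driven by the Cx45 promoter. Each genotype is described as 1 line, so every genotype difference below is a difference between 2 lines, and the reporters cannot be told apart from the deletions. There were 2 arrays of control and 2 of deleted stem cells, cultured with leukemia inhibitory factor on embryonic fibroblast feeders, each from 1 well. There were 3 arrays of control and 4 of deleted embryoid bodies at day 6, each from a pool of about 300 bodies grown from hanging drops without that factor. The labels describe no step that removes feeder cells, so feeder RNA cannot be told apart from stem cell RNA on the stem cell arrays. The samples are listed as biological replicates without naming separate cultures, so p-values measure only the spread between these arrays, which may be partly technical.

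Connexins form gap junctions, channels through which neighbouring cells exchange ions and small molecules. Embryonic stem cells couple through such channels, and connexin43 and connexin45 are among the connexins they express. When stem cells aggregate without leukemia inhibitory factor they leave the pluripotent state and form embryoid bodies, whose outer layer becomes primitive endoderm, the tissue named in the title of the series. The array's probe identifiers were not matched to genes here, so the probes are given by identifier, their genes and sequences are not named, and the labelled cell types and the deleted genes were not checked against marker probes. Different probes may report the same gene. In pooled bodies, fewer cells of a type and less RNA per cell cannot be told apart.

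Between 39.7% and 43.0% of all probes were detected per array. Within groups, arrays correlated at Pearson r of 0.976 to 0.994 across all probes. Stem cell arrays did not group by line, since control replicate 2 and deleted replicate 2 correlated at 0.995. The pair within control stem cells gave 0.988 and the pair within deleted stem cells 0.982. These coefficients are across probes, which share arrays and are not independent. Deleted stem cell replicate 1 was the stem cell array most like embryoid bodies, at r of 0.936 to 0.943 with the control bodies, against 0.902 to 0.931 for the other 3 stem cell arrays. In both comparisons of deleted stem cells, against control stem cells and against deleted bodies, counts past the adjusted threshold are given below with and without it. Most other values are given only with it. The median intensity of undetected probes, a measure of array background, was 111.7 to 114.4 units in control bodies and 106.6 to 111.7 in deleted bodies before normalization. In stem cells it was 113.8 and 122.6 units in the control line and 126.4 and 121 in the deleted line. After normalization it was 114.2 to 114.6 on every array.

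**Figure D1:**
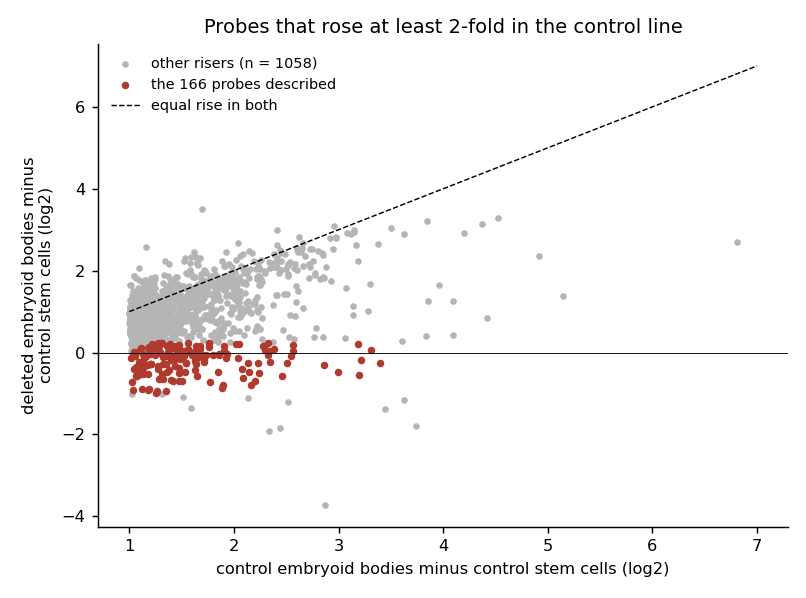
Each point is 1 of the 1224 probes that rose at least 2-fold in the control line. The x axis gives that rise and the y axis the difference of deleted embryoid bodies from control stem cells, both on the log2 scale, and the dashed line marks an equal level in both kinds of embryoid body. The 166 probes, in red, lie between -0.98 and 0.24 on the y axis by the way they were chosen.

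The control line's rise across the 166 probes ranged from 1.02 to 3.40 on the log2 scale, with a median of 1.46. Their difference between control and deleted bodies ranged from 1.00 to 3.74, with a median of 1.65. In 119 probes that difference was under 4-fold, in 47 it was at least 4-fold and in 7 at least 8-fold. Over all 23268 probes tested the corresponding medians were -0.01 and -0.01. Every deleted body array lay below every control body array in 166 of 166 probes, against 16.1% of all probes tested, and every control stem cell array did in 162, against 28.8%. In the model fitted with limma to all probes, 166 of 166 passed as lower in deleted bodies, where 11.6% of all probes did, and 162 of 166 passed as higher in control bodies than in control stem cells, where 18.3% did. The choice of the probes largely set these counts, which describe them and test nothing. The 4 without a call, named after their values were seen, were ILMN_1245246, ILMN_2498851, ILMN_2615096 and ILMN_2772764, and in these 4 the control stem cell and control body arrays overlapped.

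Across the 11 arrays the median intensity of the 166 probes was 264.5 and 299.9 units on the control stem cell arrays, and 870.3, 955.4 and 963.2 units on the control body arrays. On the deleted body arrays it was 228.5, 229.5, 227.0 and 220.6 units. The 4 deleted body arrays read alike, and their medians lay below those of both control stem cell arrays. The choice favoured that side, since deleted bodies had to lie more than -1 and at most 0.25 from control stem cells. It also depended on the scaling. With median scaling in place of quantile normalization, the median difference of deleted bodies from control stem cells moved from -0.11 to -0.0018. Relative to the control stem cell mean of each probe, the median difference was between -0.17 and -0.10 on the deleted body arrays and between 1.45 and 1.54 on the control body arrays. Over all probes tested, these medians were between -0.02 and 0.00 on every array.

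**Figure D2:**
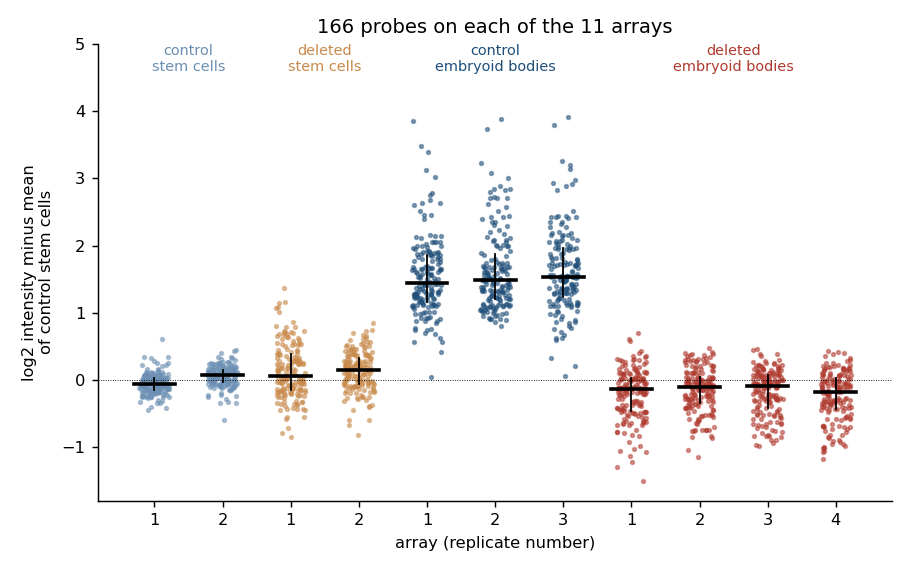
Each point is 1 of the 166 probes on 1 array, as its log2 intensity minus the mean of the 2 control stem cell arrays for that probe. Thick bars are medians and thin bars run from the first to the third quartile. The control bodies stand with medians of 1.45 to 1.54 above control stem cells and the deleted bodies with medians of -0.17 to -0.10.

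The 8 probes with the largest difference between the bodies show the pattern at its most extreme. ILMN_1228535 read 300.2 and 286.7 units in control stem cells and 450.0 and 313.9 in deleted stem cells. In control bodies it read 3261, 2109 and 2817 units, and in deleted bodies 225.5, 282.0, 186.2 and 139.1. All deleted body arrays lay below all stem cell arrays, and control bodies were 13.3-fold higher than deleted bodies. The log2 difference of deleted from control bodies was -3.74 ± 0.24 (SE).

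ILMN_1246173 was nearly level in stem cells, at 170.4 and 169.1 units in the control and 192.7 and 176.7 in the deleted line. It stood at 1790, 1255 and 2556 units in control bodies and at 131.3, 158.0, 147.1 and 135.0 in deleted bodies, a 12.6-fold difference. These deleted body values lie close to the background of about 114.4 units, where ratios are compressed. ILMN_1244618 was the most uneven of the 8, with 2467, 1445 and 712.8 units in control bodies against 117.5, 128.2, 116.2 and 129.4 in deleted bodies. It was detected on 1 of 4 deleted body arrays, although both stem cell groups had it at 161.9 to 200.8 units.

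ILMN_2998807 and ILMN_2661422 kept their stem cell level in deleted bodies. ILMN_2998807 read 195.9 to 246.5 units there, within the 203.7 to 288.7 of the stem cell arrays but for the lowest 2 arrays, and 1612 to 3427 in control bodies. ILMN_2661422 read 188.4 to 235.5 units in deleted bodies, 185.8 to 213.6 in stem cells and 1636 to 2696 in control bodies. ILMN_1257855 followed the same course, with 200.5 to 220.2 units in deleted bodies and 1679 to 2272 in control bodies. ILMN_2445324 was the brightest and most even of the 8, at 4662, 4367 and 4399 units in control bodies. It read 592.8, 545.3, 602.6 and 461.1 units in deleted bodies, below every stem cell array, whose values were 732.6 to 908.3. ILMN_2775154 reached 1086, 2320 and 1162 units in control bodies and 139.4 to 240.0 in deleted bodies.

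**Figure D3:**
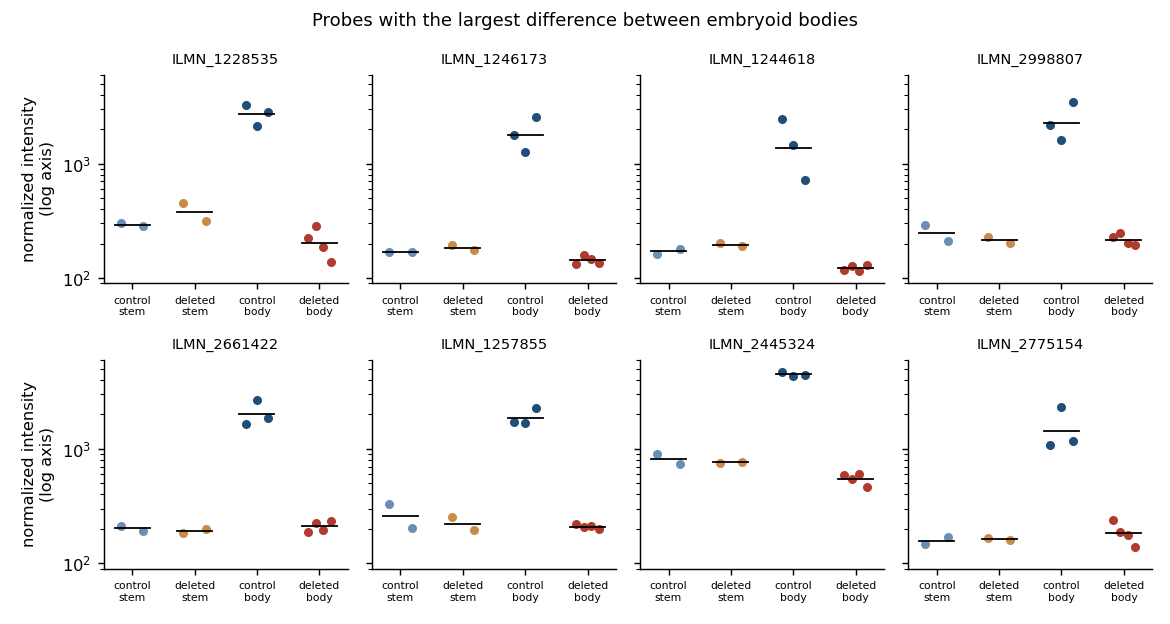
Normalized intensity on a log axis for the 8 probes with the largest difference between control and deleted embryoid bodies. Each point is 1 array and each bar the geometric mean of a group. In each panel the 3 control body arrays lie above all other arrays, and for ILMN_2445324 they span only 4367 to 4662 units.

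The geometric mean of the 166 probes in control stem cells ranged from 131.7 to 5543 units with a median of 282.8, against a median of 186.9 over all probes tested. There 64 of them, or 38.6%, lay under 2 times the normalized background, as did 57.2% of all probes tested. The choice required detection in these cells. Near the background a ratio is compressed. Deleted bodies read under 2 times the background in 87 and under 1.5 times in 54. By contrast, 0 of the 166 lay under 2 times the background in control bodies. A total of 24 probes exceeded 1000 units in control stem cells, and for these the median difference between the bodies was 1.46, with deleted bodies at a median of -0.07 from control stem cells. In the 49 probes under 200 units these medians were 1.62 and -0.03, and in the 76 probes of 200 to 500 units they were 1.81 and -0.24. The choice set the least difference in every band, so these medians only describe the probes.

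The 6 brightest probes in control stem cells lie farthest from the background. ILMN_2943599 read 5873 and 5231 units in control stem cells, 5418 and 5635 in deleted stem cells and 5512, 5991, 6336 and 6117 in deleted bodies. Its control body values, 13335, 11755 and 10962 units, were 2.00-fold those of deleted bodies. ILMN_1230119 read 5077 and 4758 units in control stem cells, 4718 and 4614 in deleted stem cells, and 4508 to 4978 in deleted bodies, against 9110 to 12110 in control bodies. For both probes the deleted body and stem cell arrays overlapped and only control bodies stood apart.

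ILMN_2515363 differed more, at 8499 to 12669 units in control and 2999 to 3555 in deleted bodies, a 3.15-fold difference. It read 2658 and 4025 units in control stem cells, a wider gap than among the 4 deleted bodies. ILMN_1258159 reached 13380 to 17288 units in control bodies and 5352 to 7022 in deleted bodies. ILMN_2777359 reached 6347 to 9374 against 2858 to 3467 units, and ILMN_2717045 reached 6478 to 7806 against 2818 to 3340. In deleted stem cells ILMN_2515363 read 4475 and 4695 units and ILMN_2777359 read 3813 and 4090, above all their deleted bodies. ILMN_1258159 read 3634 and 4931 units there, below all its deleted bodies. ILMN_2717045 read 4313 and 3002 units there, and its deleted bodies overlapped these.

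Deleted bodies lay below control stem cells in 111 of the 166 probes and above them in 55, with 102 probes within 0.25 on the log2 scale and 33 at least 0.5 below. Every deleted body array was below both control stem cell arrays in 52 probes, or 31.3%, against 27.4% of all probes tested, and above both in 7, against 27.3%. The choice allowed a fall of up to 1 but a rise of only 0.25, so these counts are uneven by construction. The side of the small differences also depended on the scaling. With median scaling in place of quantile normalization, 84 of the 166 lay below control stem cells, and the median of -0.11 moved to -0.0018.

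The 4 probes with the lowest deleted bodies relative to control stem cells read about as far below the stem cells as the choice allowed. ILMN_2982771 read 306.7 and 360.8 units in control stem cells and 338.3 and 445.2 in deleted stem cells. In deleted bodies it read 163.2, 198.7, 170.1 and 146.9 units, while control bodies held 610.7, 708.2 and 1150. ILMN_1253819 read 304.9 and 397.3 units in control stem cells and 418.5 and 469.5 in deleted stem cells. Its deleted bodies read 148.6, 190.8, 207.3 and 191.2 units, with 746.6 to 1033 in control bodies. ILMN_1228748 read 170.8 to 280.3 units and ILMN_2736497 147.9 to 181.8 units in deleted bodies. In all 4 probes the deleted bodies did not overlap the stem cells of either line, and the control bodies lay above both.

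Detection in the deleted line was not itself a condition of the choice. All 4 deleted body arrays detected 153 of the 166 probes, 1 to 3 arrays detected 12, and none detected ILMN_2908687, which read 107.7 to 125.5 units there, 131.9 and 149.1 in control stem cells and 387.7 to 465.9 in control bodies. Both deleted stem cell arrays detected 160 probes. All 11 arrays detected 147. The choice bore on these counts indirectly, since it kept deleted bodies within 2-fold below control stem cells that detected the probe.

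The deleted stem cell arrays had no part in the choice either, and show where the same transcripts stood before differentiation. Their difference from control stem cells ranged from -0.83 to 0.90 on the log2 scale with a median of 0.12, against -0.01 over all probes tested. Deleted stem cells were above control stem cells in 106 of the 166 and below them in 60, and 88 lay within 0.25 on the log2 scale. With limma 0 of 166 passed an adjusted p of 0.05, as did 0% of all probes tested, and limma's trended robust fit also gave 0. At an unadjusted p under 0.05 there were 22 higher and 3 lower, or 15.1% together, against 4.84% and 4.15%, or 8.99% together, of all probes tested. Both deleted stem cell arrays lay above both control ones in 59 probes, or 35.5%, where 17.9% of all probes did, and below both in 23, or 13.9%, where 20.5% did. The control stem cell arrays served in the choice, whose limits favour low readings there in part and high readings in part. Any net shift of these differences was not tested, so the counts are a description. Every deleted stem cell array lay below every control body array in 161 of the 166, against 24.2% of all probes tested. Control bodies were chosen to lie at least 2-fold above control stem cells, so that count largely follows from the choice.

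The highest of the 166 in deleted relative to control stem cells was ILMN_2927638, at 786.5 and 410.4 units against 223.4 and 414.8. Its difference of 0.90 ± 0.37 (SE) rested mostly on deleted replicate 1, which lay 1.37 above the control mean on the log2 scale, where replicate 2 lay 0.43 above it. The 2 control arrays were themselves far apart, and replicate 2 read about as the higher of them. ILMN_1230558 read 347.4 and 242.0 against 137.0 and 194.2 units, and ILMN_2677921 read 660.5 and 450.0 against 300.0 and 359.0, without overlap in either probe. At the other end ILMN_2604494 read 269.1 and 243.5 units against 388.3 and 346.7, and ILMN_2687828 read 306.6 and 429.9 against 643.2 and 436.9. ILMN_1245246 read 694.2 and 704.2 units against 1894 and 819.5 in the controls, whose 2 arrays were far apart. None of these 6 passed the adjusted threshold in the stem cell comparison, with limma adjusted p between 0.51 and 0.63.

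The 2 deleted stem cell arrays gave medians of 0.05 and 0.15 above control stem cells for the 166 probes, replicate 1 being the lower. Among the 938 risers whose control bodies were under 2-fold above deleted bodies, these medians were 0.74 and 0.19, replicate 1 being the higher. Among 108 probes that met every condition but stood more than 0.25 above control stem cells in deleted bodies, they were 0.37 and 0.11. The 166 probes thus read close to control stem cells on the array on which other risers read higher. All 3 classes were defined partly by the deleted bodies and the control stem cells, and the difference between the classes was not tested. Single probes departed from the median. ILMN_3120014, named after its values were seen, read 1220 units on deleted replicate 1, within the 1114 to 1234 of control bodies, but 593.5 on replicate 2.

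Without deleted stem cell replicate 2, limma's stem cell comparison called 3 of the 166 probes, all higher, where 1.72% of all probes passed as higher. They were ILMN_1226195, ILMN_2862567 and ILMN_3120014. That fit compares replicate 1 alone and takes its spread from the other groups. Without replicate 1, 0 passed.

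Set against their own stem cells, deleted embryoid bodies were lower in more of the 166 probes than they were higher. Their difference from deleted stem cells ranged from -1.43 to 0.51 on the log2 scale with a median of -0.27, against 0.02 over all probes tested, and was negative in 120 of 166 probes. In the limma fit 41 probes passed as lower, or 24.7%, where 11.8% of all probes did, and 0 passed as higher, where 10.5% did. At an unadjusted p under 0.05, 61 were lower and 4 higher, against 17.2% and 17.1% of all probes tested, the 4 being ILMN_1249046, ILMN_1258159, ILMN_2604494 and ILMN_3006587. Deleted bodies did not overlap deleted stem cells and lay below them in 75 probes, or 45.2%, where 20.9% of all probes did, and above them in 13, where 23.2% did. The deleted body arrays served in the choice and were taken low, which lowers these differences. Without deleted stem cell replicate 1, 25 probes passed as lower, or 15.1%, beside 11% of all probes, and without replicate 2, 32 did, beside 6.53%. With median scaling 25 passed as lower, beside 8.29%. The count of 0 higher did not hold under every alternative. In 10 of 18 alternatives, 1 to 3 probes passed as higher, from 5 probes in all. With median scaling 1 of the 166 did, beside 9.56% of all probes. With the replicate number added to the fit 1 did, beside 7.54%. ILMN_1258159 and ILMN_2604494 each passed as higher in 5 alternatives, ILMN_1249046 in 3, ILMN_3006587 in 2 and ILMN_2450384 in 1. Those of ILMN_1258159 included median scaling and the fit without deleted stem cell replicate 2.

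The largest falls in the deleted line were those of ILMN_2677921, ILMN_2927638 and ILMN_2881857. ILMN_2677921 went from 660.5 and 450.0 units in deleted stem cells to 172.1, 278.0, 205.9 and 169.7 in deleted bodies, a log2 difference of -1.43 ± 0.22 (SE, limma adjusted p = 0.0015). ILMN_2881857 went from 386.5 and 379.1 to 135.7, 170.3, 147.3 and 144.6 units, at -1.36 ± 0.13 (SE, limma adjusted p = 0.00015). In control bodies it read 550.3, 557.1 and 592.1 units, above its control stem cells at 197.3 and 275.5. The groups of both probes did not overlap. ILMN_2927638 had a log2 difference of -1.41 ± 0.32 (SE, limma adjusted p = 0.011), which was -0.94 without deleted stem cell replicate 1 and then did not pass (limma adjusted p = 0.098). For the 41 probes that passed, deleted bodies had a median of -0.53 from control stem cells and lay below them in all but 1, and 38 were detected on all 4 deleted body arrays.

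Upward, the differences in the deleted line reached 0.51 on the log2 scale. ILMN_1258159 went from 3634 and 4931 units in deleted stem cells to 5418, 7022, 5352 and 6448 in deleted bodies, a log2 difference of 0.51 ± 0.16 (SE, limma adjusted p = 0.051). In the control line it went from 4978 and 5658 to 13923, 13380 and 17288 units. ILMN_2450384 had a log2 difference of 0.46 and ILMN_1245246 of 0.44, neither past the threshold. The 125 probes without a call, these 3 included, had a median of -0.15 and a range of -0.71 to 0.51 on the log2 scale.

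**Figure D4:**
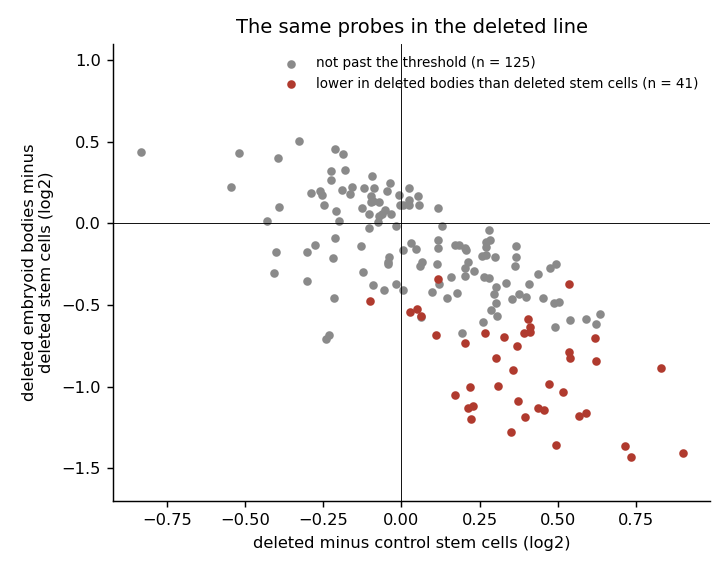
Each point is 1 of the 166 probes. The x axis gives deleted minus control stem cells and the y axis deleted bodies minus deleted stem cells, both on the log2 scale. The deleted stem cell mean enters both axes with opposite sign, so the downward slope is built in. The 41 probes in red passed the limma threshold as lower, and no probe lies above 0.51 on the y axis.

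The choice favoured a larger difference between the lines in bodies than in stem cells, and most of the 166 had one. The interaction, the genotype difference in bodies minus that in stem cells, passed with a negative sign in 153 probes, or 92.2%, where 5.96% of all probes did. It contains the contrast that served to choose them, so nothing is read from that count.

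Control bodies varied among themselves. The highest of the 3 arrays was under 2-fold above the lowest in 143 probes and at least 2-fold in 23. The range had a median of 0.59 on the log2 scale, against 0.25 over all probes tested. Other risers of the control line also exceeded the latter. The median was 0.45 in the 938 risers whose control bodies were under 2-fold above deleted bodies. Among probes that otherwise met the conditions, it was 0.54 in the 108 with deleted bodies more than 0.25 above control stem cells. In the 12 with deleted bodies at least 1 below control stem cells it was 0.59. Among the chosen probes, replicate 1 was highest in 53, or 31.9%, replicate 2 in 44, or 26.5%, and replicate 3 in 69, or 41.6%. Over all probes tested these shares were 39.3%, 27.3% and 33.4%. Of the 23 uneven probes, 12 had replicate 2 as the highest, 5 replicate 1 and 6 replicate 3.

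The widest ranges were those of ILMN_2769418, ILMN_2772764 and ILMN_1244618. ILMN_2769418 read 749.7, 1598 and 308.6 units in control bodies, a 5.18-fold range, and 117.1 to 134.8 in deleted bodies. ILMN_2772764 read 608.5, 395.6 and 172.6 units, so that replicate 3 lay between the control stem cells at 158.1 and 174.4, while deleted bodies read 123.0 to 137.4. In these probes replicate 3 was the lowest of the control bodies and still lay above all deleted bodies. ILMN_1245246 had its highest value of 5202 units on replicate 2, against 2078 and 1567 on the others. Without replicate 2 its difference between deleted and control bodies was -0.93 in place of -1.44 and did not pass (limma adjusted p of 0.052 in place of 0.023).

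The choice was repeated without each array of the 3 groups it uses, and the left-out array was then read against groups that had served in the choice. The other side of each difference was therefore still selected, and the values are a description. Without 1 control body array, 174 to 182 probes met the conditions. The left-out array then stood at a median of 1.54, 1.63 and 1.56 above deleted bodies for replicates 1, 2 and 3, where the arrays used for the choice gave 1.67, 1.65 and 1.62. It was at least 2-fold above deleted bodies in 81.7%, 88.5% and 83.0% of the probes chosen. Without 1 deleted body array, 165 to 178 probes were chosen, and the left-out array lay 1.60 to 1.73 below control bodies in the median. It met the limit of 0.25 above control stem cells in 86.1%, 79.2%, 92.4% and 90.5% of the probes for replicates 1 to 4. Without control stem cell replicate 1 or 2, 186 or 182 probes were chosen, of which 147 and 136 were among the 166. The left-out stem cell array lay 1.57 and 1.36 below control bodies. The arrays used for the choice gave 1.38 and 1.43 there. The repeated choices share most of their arrays, and all 11 arrays were normalized together.

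**Figure D5:**
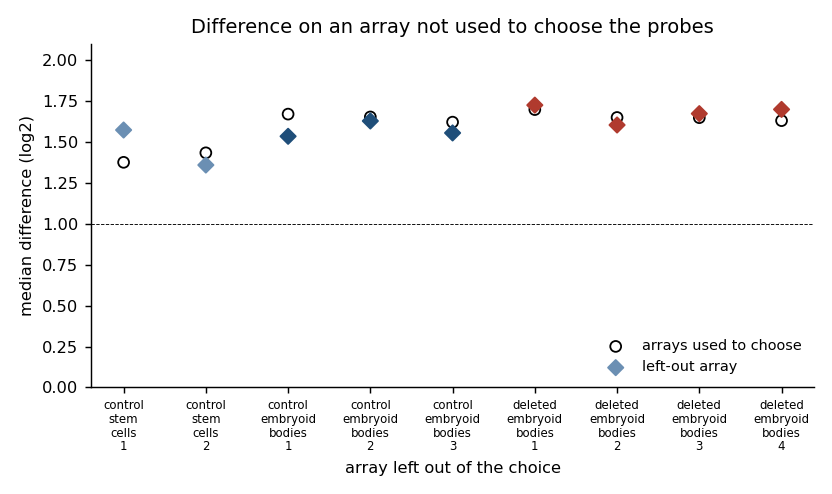
Median log2 difference for probes chosen without 1 array, on the arrays used for the choice (open circles) and on the left-out array (diamonds). The difference is control bodies minus stem cells for the 2 stem cell arrays and control minus deleted bodies for the rest. The dashed line marks 2-fold, and the left-out arrays lie between 1.36 and 1.73.

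The nearest probes on either side of each limit were as follows. At the limit on the control line's rise, ILMN_1241278 was inside at 1.02 and ILMN_1217102 outside at 0.997, with 15 members within 0.1 inside and 28 probes within 0.1 outside. At the limit on the difference between bodies, ILMN_2943599 was inside at 1.00 and ILMN_2931096 outside at 0.99, with 10 and 8 probes within 0.1. This pair differed in spread, since control bodies read 10962 to 13335 units for ILMN_2943599 and 505.1 to 1828 for ILMN_2931096. For deleted bodies relative to control stem cells, ILMN_2450384 at 0.24 and ILMN_2692306 at 0.25 lay on either side of the upper limit, with 20 and 17 probes within 0.1. ILMN_2982771 at -0.98 and ILMN_1252953 at -1.01 lay on either side of the lower one, with 5 and 3. A further 12 probes met the other conditions but lay at least 1 below control stem cells in deleted bodies, and 108 lay above the upper limit, so the 166 are a band of a continuous range of 286 probes.

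Background correction enlarges ratios of dim probes by construction. With limma's neqc correction the median difference between the bodies was 2.37 in place of 1.65 on the log2 scale, and deleted bodies stood at a median of -0.18 from control stem cells. The part of the lower array background of deleted bodies in their differences from control bodies and from stem cells was not tested.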

How the data were processed

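Illumina MouseWG-6 bead arrays read the RNA of 11 samples. The deposited table gives each probe's intensity and detection p-value per array before normalization, per the file headers, from GenomeStudio 2011.1 (Gene Expression module 1.9.0), per the labels. The authors later quantile normalized these intensities, per the labels. Whether background was subtracted first is not stated in the sources used, and the lowest deposited intensity was 85.9 units. The intensities were quantile normalized here over all 45281 probes and log2 transformed. R 4.3.3 and limma 3.58.1 fitted the 4 groups over all 11 arrays, with Benjamini-Hochberg adjustment over the 23268 probes that 2 or more arrays detected at 0.05, a step tested on simulated data. Named probes were the 8 with the largest difference between bodies, the 6 brightest in control stem cells, the 4 lowest relative to control stem cells, the 3 at either end of both comparisons of deleted stem cells, the 3 most variable in control bodies and those nearest each limit. A second normalization, background correction, filters, limits, a replicate block and leaving out each array were tried. The members and lists were chosen with earlier results of these data known. Probe annotation, sequences and the deleted genes were not analysed here. The number of arrays limits the precision.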

Additional observations from a re-analysis of the deposited data

How the results depend on the processing

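The number of probes that met the conditions was 166. With neqc background correction at an offset of 16 it was 263, of which 120 were among the 166, and with limits of 0.8 in place of 1 on both differences it was 261, which held all 166. Leaving out each array in turn and normalizing the rest anew gave 165 to 191 probes, sharing 136 to 166 with the set. The 191 were those without control stem cell replicate 1, where normalization over all 11 arrays gave 186. Of the 166, limma called 41 in deleted bodies against deleted stem cells and 26 with median scaling, of which 25 were lower. Leaving out each array gave 25 (without deleted stem cell replicate 1) to 47 calls there, 0 to 3 in deleted against control stem cells (3 without deleted replicate 2), 163 to 166 between the bodies, 151 to 163 in the control line and 126 to 154 for the interaction. For the 29 named probes, alternatives were recomputed for each of 3 comparisons. In deleted bodies against deleted stem cells 23 values no longer passed, 28 newly passed, 10 without a call moved by more than the spread between replicates and 461 did none of these. Between the bodies, on which the probes were chosen, 6 no longer passed and 516 kept their call. Between stem cells 6 moved by more than that spread and 516 did not. Among called values, 0 changed sign. In deleted bodies against deleted stem cells, 11.8% of all probes passed as lower, and 8.29% did with median scaling. The share over all probes thus moved between fits, and it is not given here for each. These counts alone therefore do not show a change particular to the 166. The causes were not tested.

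Deviations of same-numbered arrays from their group means correlated weakly, at -0.016 in stem cells and 0.077, -0.0087 and 0.188 in embryoid bodies. Differently numbered embryoid body arrays gave -0.293 to 0.341, a range that holds these values. The numbers were therefore not used to pair arrays. With the replicate number as a replicate block, limma called 0 of the 166 between stem cells, where 0% of all probes passed. In the deleted line it called 32 (31 lower and ILMN_2604494 higher), where 7.74% of all probes passed as lower and 7.54% as higher. It called 165 between the bodies, 162 in the control line and 146 for the interaction. The share of all probes in this fit is not given for the bodies, the control line or the interaction, so nothing is read from those counts. Deleted body replicate 4 has no partner and does not contribute to that fit.

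With 2 stem cell arrays per line, 0 calls between stem cells do not show that the lines were alike. Intensities near the background of 114.4 units limit what can be read from the dimmest probes.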
